A study of Mus musculus with 2 samples.

Results

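The genes described here are Etv1, Etv4 and Etv5, which encode the PEA3 group of ETS transcription factors, and 7 genes whose products restrain ERK signalling, namely Spry1, Spry2, Spry4, Spred1, Spred2, Dusp4 and Dusp6. They were chosen by gene name from a list, with no threshold on their values, and every probe that carried 1 of these 10 names was taken. This gave 14 of the 55676 probes measured on both arrays, and 10 of 34820 names. Etv1, Etv4 and Spred1 had more than 1 probe. Each probe is 60 bases of a transcript named in the array files, and whether it lies in a coding or an untranslated stretch was not analysed here.

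RNA came from dorsal epidermis of FVB/N mouse pups at postnatal day 4.5, which the methods of the study describe as separated from the dermis with a protease. Each of 2 microarrays set the RNA of a K14-rtTA;TRE-Sox11-FLAG pup, labelled with Cy5, against that of a K14-rtTA littermate, labelled with Cy3, and both littermates of a pair received doxycycline for 12 h. K14-rtTA makes a doxycycline-dependent activator in keratin 14 cells, so that the controls carried the activator and the drug but no Sox11 transgene. Values below are log2 ratios of SOX11-induced over control epidermis, given for pair 1 and pair 2 and then as mean ± SD over the 2 pairs, with limma's moderated test adjusted over all probes by Benjamini-Hochberg. A probe was called when its adjusted p was under 0.05 and its mean log2 ratio was past 1.5 in either direction. The dyes ran the same way on both arrays, so a dye effect and a genotype effect cannot be told apart within a probe. In RNA from a whole tissue layer, a change in the number of cells that express a gene and a change in RNA per cell cannot be told apart either.

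Growth factor receptors activate ERK through Ras, Raf and MEK. Active ERK relieves repression of the Etv genes by the transcription factor Capicua (Cic), and Etv4 and Etv5 are widely used as readouts of FGF and ERK signalling in developing epithelia. Sprouty (Spry) and Spred proteins act on the Ras and Raf steps, while the phosphatases Dusp4, found in the nucleus, and Dusp6, found in the cytoplasm, remove the activating phosphates from ERK. Many of these inhibitors are themselves transcribed in response to ERK, which closes negative feedback loops.

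Quality was read from the whole arrays. Per channel, 37.5% to 42.6% of 59305 spots other than controls passed the software's background test, and log2 ratios of the pairs correlated across probes with a Pearson r of 0.529, or 0.685 over the 21782 probes above background in a channel on both arrays. The 2 probes of Sox11 were not well above background in any channel and could not check the labels. All 6 epidermal markers (Krt5, Krt14, Krt1, Krt10, Lor and Trp63) were well above background in all 4 channels, and none passed the adjusted p. The basal cell genes Krt5, Krt14 and Trp63 had negative log2 ratios in both pairs, with means of -0.44, -0.31 and -0.23, and the genes of differentiating layers Krt1, Krt10 and Lor had positive ones, with means of 0.62, 0.58 and 0.50. The part of these in the ratios below was not tested. Of the markers of other cells, 4 dermal fibroblast genes were above background in all channels, and Lum and Pdgfra were at background. Of the 4, Dcn was lower (-0.79, limma adjusted p = 0.0276). Col1a1, Col1a2 and Col3a1 had positive means of 0.37, 0.49 and 0.37 and did not pass. Their log2 ratios were -0.03, -0.17 and -0.17 in pair 1 and 0.77, 1.14 and 0.92 in pair 2. The fibroblast median was -0.10 in pair 1 and 0.50 in pair 2, that of 4 endothelial genes 0.10 and -0.05, that of 5 leukocyte genes -0.27 and -0.0098, and that of 5 melanocyte genes 0.59 and -0.00045, and no gene of the last 3 lists passed the adjusted p. By summed level, hair shaft keratins and leukocyte genes set the pairs apart. The summed level of the keratins, in normalized brightness over 8 genes, was 32320 in the control of pair 1 and 281000 in that of pair 2. In the SOX11 channel it was 153900 in pair 1 and 227700 in pair 2. The sum of the 5 leukocyte genes was 4072 in the control of pair 1 and 1327 in that of pair 2. In the SOX11 channel it was 3336 in pair 1 and 1189 in pair 2.

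Etv4, Etv5 and Dusp6 had higher ratios in SOX11-induced epidermis in both pairs and passed the adjusted p, and the first 2 were called. Of the 14 probes, 3 were called higher (2 of Etv4 and 1 of Etv5) against 0.365% of all probes, and 0 were called lower against 0.0862%. With the adjusted p alone, 4 probes were higher, the fourth being that of Dusp6, against 2.9% of all probes, and 0 were lower against 1.35%. By limma at an unadjusted p under 0.05, 6 of the 14 were higher, against 11.9% of all probes, and 0 were lower, against 9.12%. Both log2 ratios were positive for 11 of 14 probes (78.6%) against 33.4% of all probes, both were negative for Spry4, and the pairs disagreed in sign for Dusp4 and 1 probe of Spred1. Of all 55676 probes, 31589 were below background in all 4 channels, against 2 of these 14. The median log2 ratio was 0.27 over the 14 probes and 0.01 over all probes. Of the 14 probes, the 12 above background in a channel on both arrays had a median of 0.37, against 0.04 for all such probes. Of all such probes, 0.932% were called higher and 6.61% were higher by the adjusted p. Both log2 ratios were positive for 83.3% of the 12 and for 41.1% of all such probes. By limma's unadjusted p, 6 of the 12 were higher, against 4114 of the 21782. A probe could enter through the SOX11 channel alone, as 1 probe each of Etv1 and Spred1 did, so these shares are partly set by the filter. Only 9 of the 14 were above background in all 4 channels.

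**Figure D1:**
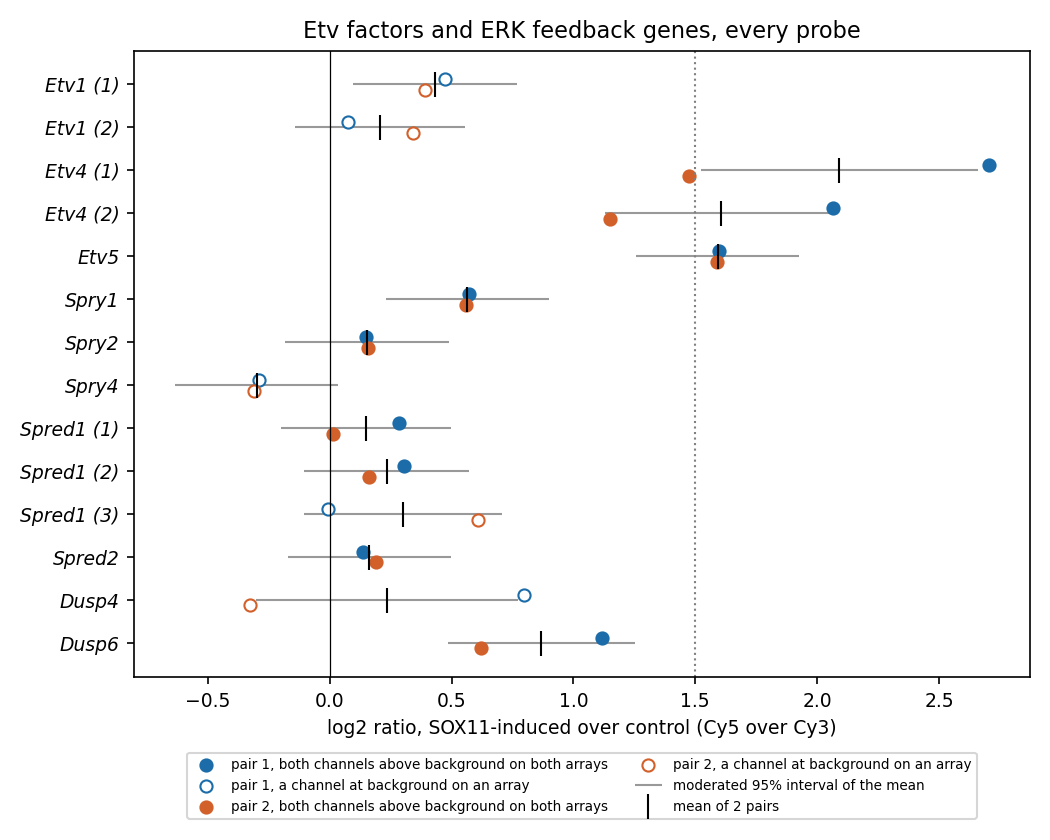
Log2 ratio of SOX11-induced over control epidermis (x axis, log2 units) for the 14 probes, with a number in brackets where a gene has several, the brightest first. Points are the 2 littermate pairs, open where a channel was not well above background on an array, black ticks are means, grey lines are moderated 95% intervals, and the dotted line marks 1.5. The Etv4 probes, the Etv5 probe and the Dusp6 probe lie to the right of the other 10 by their means, and the points of Etv5 lie together while those of Etv4 lie apart.

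Etv4 was measured by 2 probes that do not overlap, both listed for the same transcript on the minus strand of chromosome 11 (build mm9, chr11:101631057-101631116 and chr11:101631322-101631381). At the first, the spot brightness before correction was 255.6 in the control and 3236 in the SOX11 channel of pair 1, and 476.9 and 2967 in pair 2. The channels have different backgrounds and dyes, so that the ratios after normalization, not these raw values, give the change. The log2 ratios were 2.71 and 1.48, or 6.52-fold and 2.78-fold, with a mean of 2.09 ± 0.870 (SD, n = 2), a moderated 95% interval of 1.52 to 2.66 and a limma adjusted p of 0.00236. Every 95% interval given here is moderated, with the spread of a probe drawn towards limma's prior. Both log2 ratios of this probe lie outside its interval, and that of pair 2 was below 1.5. The mean corresponds to a 4.26-fold higher level, and 0.381% of all probes above background had a mean at least as high. At the second probe the log2 ratios were 2.06 and 1.15, with a mean of 1.61 ± 0.646 (SD, n = 2), a 95% interval of 1.13 to 2.09 and a limma adjusted p of 0.00388. Both Etv4 probes thus gave a larger ratio in pair 1 than in pair 2, and in each pair the first probe gave the larger ratio of the 2 probes. The mean of the second probe lay just past the threshold of 1.5, and its interval spans that threshold.

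Etv5 rose by nearly the same factor in both pairs. Its probe (mm9, minus strand, chr16:22381387-22381446) had a normalized log2 brightness of 8.83 and 8.86 in the controls of pair 1 and pair 2, and of 10.43 and 10.44 in the SOX11 channels. The 2 channels did not overlap. The log2 ratios were 1.60 and 1.59, with a mean of 1.59 ± 0.00633 (SD, n = 2), a 95% interval of 1.26 to 1.93 and a limma adjusted p of 0.000624. This is 3.01-fold higher, and 0.799% of probes above background had a mean at least as high. An SD of 2 values is itself poorly known, and the moderated interval carries the error.

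Etv1, the other member of the group, was near the limit of detection. Its brighter probe (mm9, plus strand, chr12:39593054-39593113) passed the background test on both arrays in the SOX11 channel but on neither in the control channel, with log2 ratios of 0.47 and 0.39 and a mean of 0.43 ± 0.0559 (SD, n = 2, limma adjusted p = 0.143). The control level was therefore poorly known, and the 95% interval of the ratio was 0.10 to 0.77. The other Etv1 probe (chr12:39594622-39594681) was below background in all 4 channels, so no fold is given. Etv4 and Etv5 were therefore called and Etv1 was not. The difference between genes was not tested, because levels and ratios of different probes are not on a common scale.

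**Figure D2:**
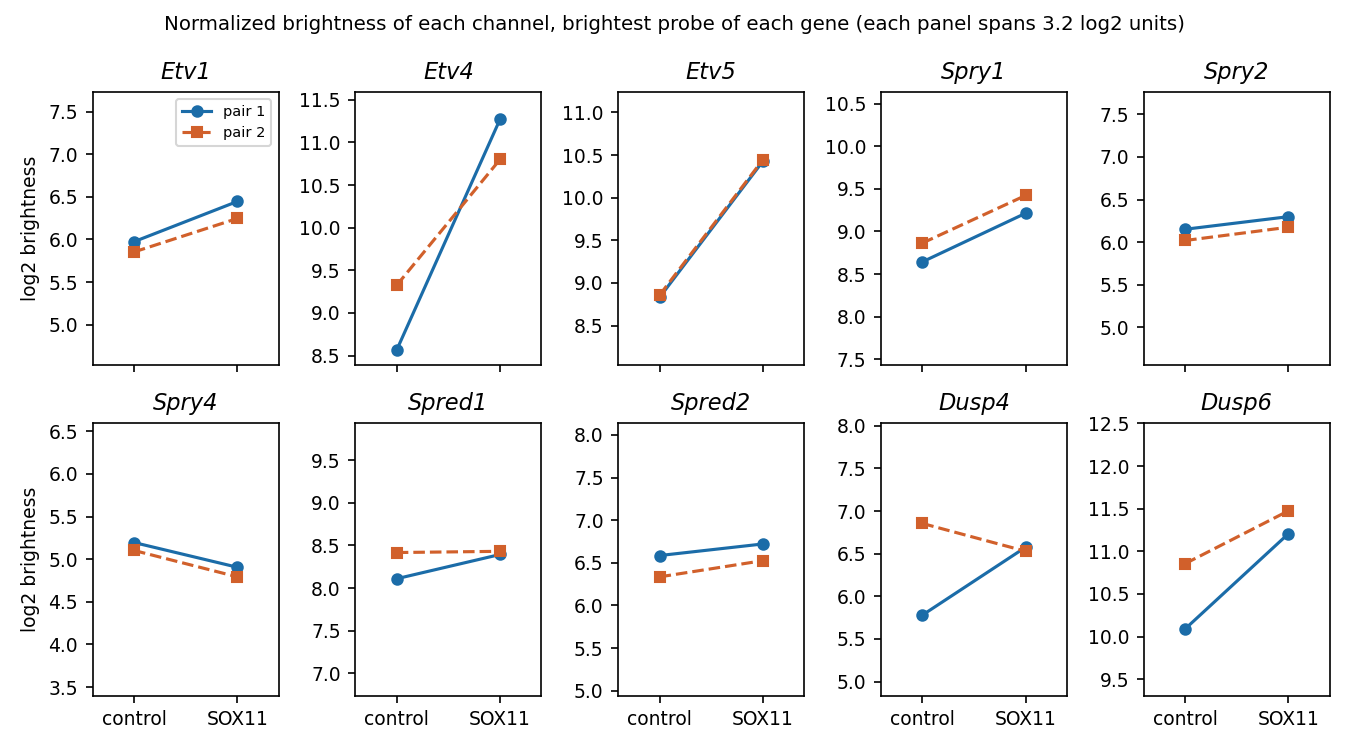
Normalized log2 brightness of the control (Cy3) and SOX11 (Cy5) channels for the brightest probe of each of the 10 genes, with lines that join the littermates of pair 1 (circles) and pair 2 (squares). Every panel spans the same number of log2 units and only slopes can be compared between panels. The lines of Etv5 nearly coincide, those of Etv4 and Dusp6 start lower in the control of pair 1, and those of Etv4 and of Dusp4 cross.

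Among the phosphatases, Dusp6 was higher in both pairs. Its probe (mm9, plus strand, chr10:98729985-98730044) had a normalized log2 brightness of 10.09 and 10.86 in the controls and of 11.21 and 11.48 in the SOX11 channels, so that both induced values lay above both control values. The log2 ratios were 1.12 and 0.62, or 2.17-fold and 1.54-fold, with a mean of 0.87 ± 0.352 (SD, n = 2), a 95% interval of 0.48 to 1.25 and a limma adjusted p of 0.0245. The mean, 1.83-fold, passed the adjusted p and did not reach the log2 threshold of 1.5. Of the probes above background, 4.36% had a mean at least as high. Dusp4 (mm9, plus strand, chr8:35882045-35882104) had log2 ratios of 0.80 and -0.33, with a mean of 0.24 ± 0.794 (SD, n = 2, limma adjusted p = 0.617). The sign differed between pairs, the control was well above background on 1 array only, and the 95% interval of -0.30 to 0.77 leaves room for a change in either direction.

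The differences between pairs lay in different channels for different genes. From pair 1 to pair 2, the normalized log2 brightness of the control was higher by 0.76 for the brighter Etv4 probe, 0.77 for Dusp6 and 1.08 for Dusp4, whereas in the SOX11 channel the differences were -0.47, 0.27 and -0.05. Etv5 differed by 0.03 in the control and 0.02 in the SOX11 channel, and Spry1 by 0.22 and 0.21. Dusp6, Dusp4 and the brighter Etv4 probe thus differed more between the control pups than between the induced pups, while the second Etv4 probe differed by 0.46 in the control and by -0.45 in the SOX11 channel. The hair shaft keratins differed between the controls in the same direction, by 1.30 to 3.47. In the SOX11 channel they differed by -0.20 for Krt35 to 0.67 for Krt34, and Krt35 alone was negative, whereas both Etv4 probes were negative there. The median log2 ratio of the keratins was 2.28 in the first pair and -0.41 in the second. Their part in the smaller ratios of Etv4 and Dusp6 in pair 2 was not tested.

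**Figure D3:**
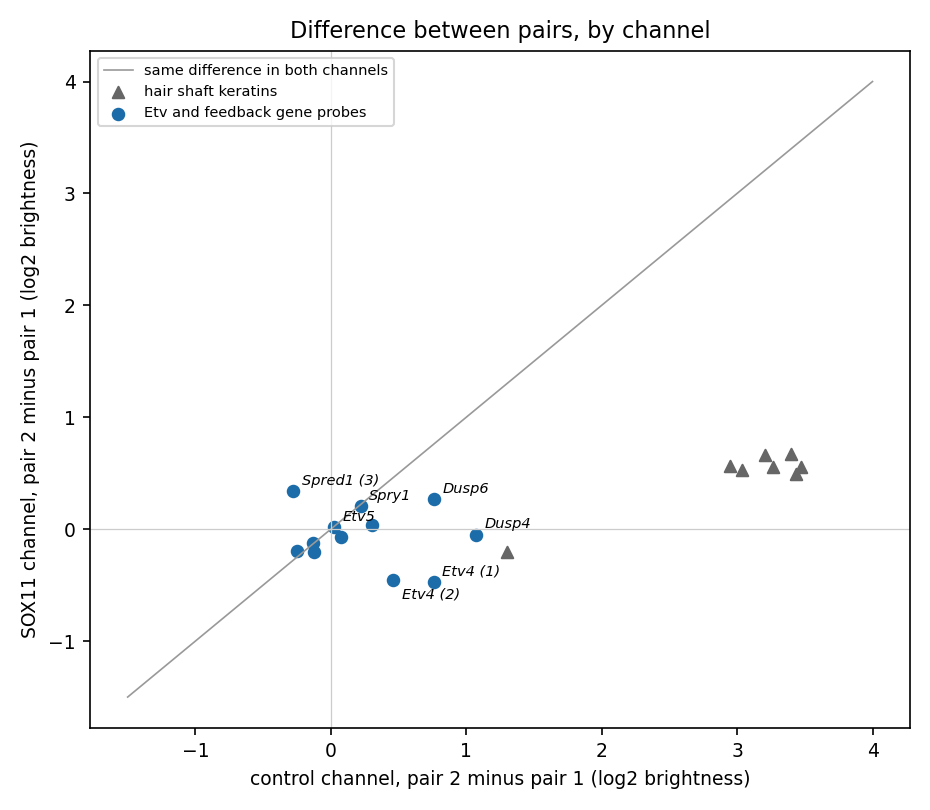
Difference in normalized log2 brightness from pair 1 to pair 2, in the control channel (x axis) and in the SOX11 channel (y axis), for the 12 Etv and feedback gene probes above background in a channel (circles) and the 8 hair shaft keratins (triangles). On the diagonal both channels differ alike and the pairs have equal ratios. Etv5 and Spry1 lie on it, whereas Etv4, Dusp6 and Dusp4 lie below it at control differences of 0.46 to 1.08.

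No Sprouty gene passed the adjusted p. Spry1 (mm9, plus strand, chr3:37543403-37543462) had a normalized log2 brightness of 8.64 and 8.86 in the controls and of 9.21 and 9.42 in the SOX11 channels, which did not overlap. Its log2 ratios were 0.57 and 0.56, with a mean of 0.56 ± 0.00821 (SD, n = 2), a 95% interval of 0.23 to 0.90 and a limma adjusted p of 0.0699. This 1.48-fold difference did not pass over all probes and passed when probes below background were left out, with a limma adjusted p of 0.0447. It also passed with an offset of 50 and with median centring in place of loess (limma adjusted p = 0.00882 and 0.00054). It did not pass with median spot brightness or with the authors' deposited ratios, which are equal (limma adjusted p = 0.10 and 0.0999). Nor did it pass with processed signals or control spots at weight 0 in loess (limma adjusted p = 0.244 and 0.0687). Spry2 (minus strand, chr14:106291845-106291904) was well above background in all 4 channels, with log2 ratios of 0.15 and 0.16 and a 95% interval of -0.18 to 0.49 (limma adjusted p = 0.604). The interval holds 0. Spry4, on the minus strand of chromosome 18, was below background in all 4 channels with log2 ratios of -0.29 and -0.31 (limma adjusted p = 0.288), so no fold is given.

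Spred genes did not pass the test at any probe. When loess was replaced by centring on the median, 2 probes of Spred1 (limma adjusted p = 0.00781 and 0.00854) and that of Spred2 (limma adjusted p = 0.0351) passed. Under that centring their means were 0.70, 0.68 and 0.49, and the median of all probes above background was itself 0.53. The brightest of the 3 probes of Spred1 (mm9, plus strand, chr2:117005906-117005965) had log2 ratios of 0.28 and 0.01 and a mean of 0.15 ± 0.191 (SD, n = 2, limma adjusted p = 0.627). The next (chr2:117004952-117005011) had 0.31 and 0.16 (limma adjusted p = 0.414). The third (chr2:116998491-116998550) is listed for a different transcript, was below background in the controls, and had -0.01 and 0.61 (limma adjusted p = 0.378). The 3 probes gave means between 0.15 and 0.30, and at the third the pairs differed in sign. Spred2 (plus strand, chr11:19922416-19922475) had log2 ratios of 0.14 and 0.19 with a 95% interval of -0.17 to 0.50 (limma adjusted p = 0.576). None of the 14 probes was saturated.

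**Figure D4:**
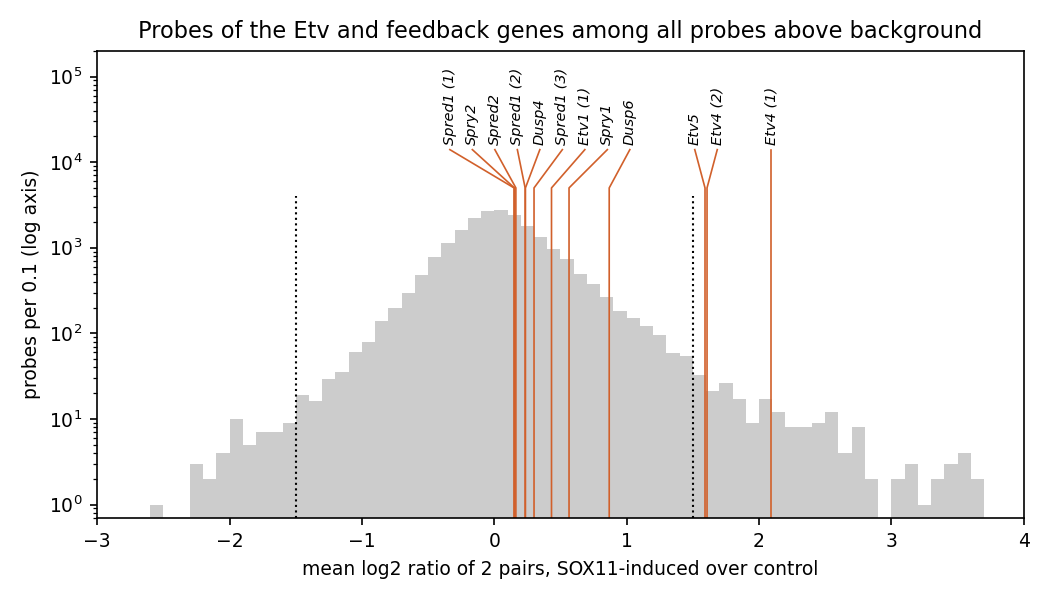
Number of probes per 0.1 log2 units (y axis, log scale) by mean log2 ratio of the 2 pairs (x axis), for the 21782 probes above background in a channel on both arrays. Vertical lines mark the 12 Etv and feedback gene probes among them and dotted lines mark -1.5 and 1.5. The 3 probes of Etv4 and Etv5 lie in the thin right tail, Dusp6 lies on its shoulder, and the other 8 lie at means of 0.15 to 0.56 within the bulk.

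Promoter sequence is shown for Etv5 and Dusp6 because both passed the adjusted p and had a window in the RefSeq table used here (assembly GRCm38.p6), which Etv4, Spry4 and Dusp4 had not. A window is the 250 bases before a transcript start, written from the 5′ to the 3′ end of the gene's own strand, and 7 of the 10 genes had 9 windows. Capitals mark matches, on either strand, to 6 short motifs. Those for SOX proteins were ACAAAG and its variants ACAATG and AACAAT, and the last 2 can overlap. The motif for ETS proteins was GGAAGT. Those for Capicua were TGAATGAA and the variant TGAATGGA. The first window is that of Etv5, on the minus strand at chr16:22438369-22438618, and the other is that of Dusp6, on the plus strand at chr10:99262981-99263230.
Etv5: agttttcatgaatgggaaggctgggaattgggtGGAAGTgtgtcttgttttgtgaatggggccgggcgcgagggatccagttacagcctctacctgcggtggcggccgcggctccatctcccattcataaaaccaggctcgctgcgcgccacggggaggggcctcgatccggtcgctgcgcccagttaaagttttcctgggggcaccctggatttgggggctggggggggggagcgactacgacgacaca
Dusp6: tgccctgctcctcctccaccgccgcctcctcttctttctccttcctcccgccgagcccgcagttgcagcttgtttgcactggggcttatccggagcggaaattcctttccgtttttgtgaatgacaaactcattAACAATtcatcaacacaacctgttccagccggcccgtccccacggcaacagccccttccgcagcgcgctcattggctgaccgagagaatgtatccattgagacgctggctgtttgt
The Etv5 window held GGAAGT at 217 to 212 bases before the start, with 62% G and C. A second Etv5 start, at chr16:22439571-22439820, had no match to any of the 6 motifs. The Dusp6 window held AACAAT at 116 to 111 bases before the start. Such matches are frequent, since 19.7% of all 32851 windows held GGAAGT, 9.42% held AACAAT, 16.5% held ACAAAG and 10.7% held ACAATG. Of the 9 windows, 2 held GGAAGT, 2 AACAAT, 2 ACAAAG and 0 ACAATG, and none held TGAATGAA (1.08% of all windows) or TGAATGGA (1.01%). The absence of these Capicua motifs does not cover the forms that were not searched. A match describes the letters in a window and does not show binding.

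To place these genes among other parts of the ERK pathway, 77 genes in 5 lists by role were read from the same fit, with the brightest probe for each gene. Of these, 6 were higher and 3 were lower by the limma adjusted p, 1 was called higher and 0 were called lower, and the median log2 ratio was 0.15. Over all 34820 names by their brightest probe the shares were 3.42% higher and 1.72% lower by the adjusted p, and 0.491% called higher and 0.123% called lower. The 21 genes that relay the signal from receptor to ERK (adaptors, Ras, Raf, MEK, ERK and RSK) had a median of 0.22 and none passed, with a range from -0.39 for Araf to 0.57 for Nras (limma adjusted p = 0.0678). The 12 FGF receptors and ligands had a median of -0.19, and 7 of them were below background in all 4 channels.

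Among 15 other inhibitors of the pathway, with a median of 0.33, 2 were higher and 0 were lower by the adjusted p. Il17rd, which encodes the membrane inhibitor Sef, had log2 ratios of 2.35 and 1.42, with a mean of 1.88 ± 0.654 (SD, n = 2, limma adjusted p = 0.00174), and was the gene called among the 77. Its control channel was well above background on 1 array only, and with an offset of 50 or with processed signals 0 of the 77 genes were called. Dusp9, an ERK phosphatase related to Dusp6, had log2 ratios of 1.54 and 1.43 (limma adjusted p = 0.000942). Its control was below background on both arrays. With the control set no lower than the lowest level that passed the background test, the SOX11 level was 2.68-fold higher. That fold carries no error and is not a firm lower bound.

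Of the FGF receptors and ligands, 0 were higher and 1, the receptor gene Fgfr3, was lower by the adjusted p at the brightest probe. Fgfr3 had log2 ratios of -1.63 and -1.29 at its brightest probe, with a mean of -1.46 ± 0.243 (SD, n = 2, limma adjusted p = 0.00138). Another Fgfr3 probe above background gave a mean of -0.50 (limma adjusted p = 0.10), and the third was below background. The brightest probe of Fgfr1 had log2 ratios of 1.34 and 0.43 and did not pass (limma adjusted p = 0.0511), while another, at 1.59 and 0.55, did (limma adjusted p = 0.0336). The third Fgfr1 probe had a mean of 0.24, but its control was below background on both arrays and its SOX11 channel was above background on 1 array only. The ligand gene Fgf18 had a mean of -0.75 at its brightest probe (limma adjusted p = 0.10) and of -0.81 ± 0.0301 (SD, n = 2) at the other (limma adjusted p = 0.0186).

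The other ETS factors, taken with Cic, had a median of 0.04 over 19 genes. Elk3, a ternary complex factor that ERK can phosphorylate, had log2 ratios of 1.17 and 1.21 (limma adjusted p = 0.00290), with a mean of 1.19 at its brightest probe. Another Elk3 probe, with its control above background on 1 array only, had a mean of 0.59 and did not pass. The third was below background in every channel and did not pass. Erf, an ETS repressor that ERK inactivates, had -0.56 and -1.13 (limma adjusted p = 0.0313). Cic itself, the repressor of Etv genes, had a mean of -0.30 and did not pass (limma adjusted p = 0.287). Of these 19, 1 was higher and 1 was lower by the adjusted p.

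Genes often used as readouts of ERK output did not move as a block. Of 10 such genes, with a median of 0.18, 3 were higher and 1 was lower by the adjusted p. The immediate early gene Egr1 had log2 ratios of 0.84 and 1.15 (mean 0.99 ± 0.221, SD, n = 2, limma adjusted p = 0.00969). The ephrin receptor gene Epha4 had 0.80 and 0.89 (limma adjusted p = 0.0158), and the early response gene Ier3 had 1.03 and 0.64 (limma adjusted p = 0.0242). Ccnd1, which encodes cyclin D1, had -0.80 and -1.69, with a mean of -1.24 ± 0.627 (SD, n = 2, limma adjusted p = 0.0129). The other 6 did not pass, among them Phlda1 with a mean of 0.55, Myc with -0.17 and Fosl1 with 0.12.

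**Figure D5:**
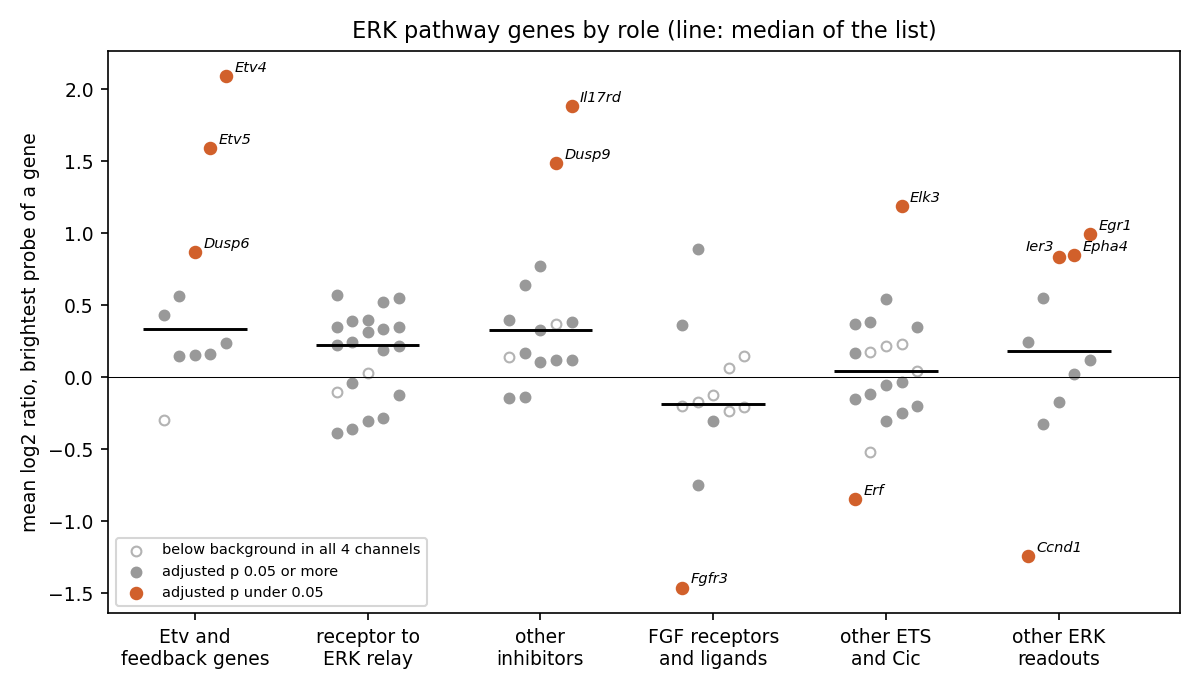
Mean log2 ratio of the 2 pairs (y axis) at the brightest probe of each gene, for the 10 Etv and feedback genes and for 77 other genes of the pathway in 5 lists by role (x axis). Orange points passed a limma adjusted p of 0.05 and are named, open points were below background in all 4 channels, and black lines are medians. No gene of the relay list passed. Outside the Etv and feedback genes, the named genes with positive values are 2 inhibitors, 3 readouts and Elk3.

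The genes whose ratios were most like those of the called Etv genes were found among 13849 names whose brightest probe was well above background in all 4 channels, by the summed absolute difference over the 2 pairs. Nearest to Etv4 were Pxdn (summed difference 0.212, log2 ratios 2.74 and 1.30), Samd14 (0.338, 2.60 and 1.71), Grasp (0.374, 2.37 and 1.51), Dbn1 (0.397, 3.04 and 1.54) and Sema6c (0.540, 2.89 and 1.83). Pxdn encodes an enzyme of the extracellular matrix and Dbn1 an actin-binding protein. Nearest to Etv5 were Abl2 (0.0534, 1.59 and 1.63), Nme4 (0.0701, 1.55 and 1.56), Zfp462 (0.0710, 1.64 and 1.56), Tmem132a (0.0720, 1.57 and 1.55) and a probe for a long intergenic RNA on chromosome 1 (0.0964, 1.63 and 1.52). Likeness over only 2 values is a description of the ratios and carries no test.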

How the data were processed

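RNA of each littermate pair was hybridised to a 2-colour Agilent array. The intensity values the authors deposited are spot and background brightness in scanner units, made with Feature Extraction 10.7.3.1 per the file headers, and probe positions are on mm9. The series table holds the authors' deposited log2 ratios and served as an alternative. A colour swap and a ComBat step for dyes are given in the methods. The labels put Cy5 on the SOX11 pup of both pairs, and no ComBat step was applied here.

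With limma 3.58.1 in R 4.3.3, the mean brightness of spots was corrected for median background by normexp with an offset of 16, and each array was centred by loess. Control spots and spots with an outlier flag (194 and 186) were then left out and spots of a probe averaged. An intercept was fitted to the 2 log2 ratios of 55676 probes with eBayes and Benjamini-Hochberg adjustment. With 2 arrays the smallest p of an exact sign-flip test is 0.5, so calls rest on limma's prior (8.14 degrees of freedom, SD 0.223). The methods set the threshold on log2 ratios, which was used, and legends word it as a fold of 1.5, which was an alternative. A probe was above background in a channel when the software marked at least 0.5 of its spots so. Channel levels were scaled by Aquantile. For the Dusp9 fold, the control was set at the higher of its own level and the lowest level among probes well above background. The number of arrays limits the precision.

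The 10 genes, the pathway and marker lists and the naming rule (all members, listed genes past the adjusted p, and the 5 genes most like each called member) were chosen with earlier results of these data known. Marker genes were measured for epidermis, dermal fibroblasts (6, of which Lum and Pdgfra were below background in all channels), endothelium (4, of which Cdh5 and Tek were), leukocytes (5, of which Lyz2 was), melanocytes (5, all above) and hair shaft (8, all above). Names are those of the array files, which can be old. Alternatives were an offset of 50, median spot brightness, median centring in place of loess, the software's processed signals, only probes above background, the series table, a linear threshold and each pair alone.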

Additional observations from a re-analysis of the deposited data

How the results depend on the processing

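Etv4, Etv5 and Dusp6 had positive log2 ratios under every alternative run. Leaving out a pair left 1 array, a value with no test, so the log2 ratios then ran from 1.48 to 2.71 and from 1.15 to 2.06 for the Etv4 probes, 1.59 to 1.60 for Etv5 and 0.62 to 1.12 for Dusp6. No paired analysis was possible beyond this because each ratio already sets littermates of a pair against each other.

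The software's processed signals gave 0 called probes in either direction by limma, with a smallest adjusted p of 0.244 and 936 probes past a log2 ratio of 1.5 at an unadjusted p under 0.05. Member probes called higher, those past the adjusted p and pathway genes called were then 0 each, although the mean log2 ratios were 2.07 and 1.96 for Etv4, 1.63 for Etv5 and 0.91 for Dusp6. The cause was not tested. Median centring without loess moved the median of probes above background from 0.04 to 0.53, and raised the share of calls that were higher from 80.9% to 98.9%. With it 794 probes were called higher and 9 lower, 9 member probes were higher by the adjusted p, and 5 pathway genes were called. Dusp6 (1.53) was then the fourth member probe called, and Spry1 (1.16), the brighter Etv1 probe (0.67), 2 Spred1 probes (0.70 and 0.68) and Spred2 (0.49) passed the adjusted p. Of these, Spred2 lay below the shifted median. Spry4, below background in all 4 channels, passed as lower (-0.54, limma adjusted p = 0.0241). The dimmer Etv1 probe turned to -0.068 under this centring and to -0.085 with processed signals.

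An offset of 50 gave 31 probes called lower and 0 pathway genes called, and the second Etv4 probe (1.35) was no longer called, while Spry1 passed with a limma adjusted p of 0.00882. With a linear threshold of 1.5-fold, 1614 probes were called higher, 754 lower and 9 pathway genes in either direction. Median spot brightness, the series table and control spots at weight 0 in loess, the last chosen after seeing the data, each left 3 member probes called. At the member probes the series table held the same ratios as median spot brightness, so these are not separate checks.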
